A study of Mus musculus with 20 samples.

Results

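The regions described here were accessible in mouse embryonic fibroblasts (MEFs) and closed in embryonic stem cells (ESCs). From Day1 to Day12 of MEF reprogramming, they had an ATAC-seq peak on most sampled days with Nanog+Oct4 and on at most 1 with NanogN70+Oct4. ATAC-seq cuts and tags accessible DNA with the Tn5 transposase. Overlapping peaks from the 20 libraries, with 1 shared bp as the minimum, were joined to give 335858 regions. Open means here that the library has a peak inside the region. Members were open in MEFs, closed in all 3 ESC libraries, open on at least 4 of the 7 days from Day1 to Day12 with Nanog+Oct4, and open on at most 1 of those days with NanogN70+Oct4. There were 3134 members, 0.933% of all regions and 4.20% of the 74608 regions with a MEF peak and no ESC peak (MEF-only regions).

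The MEFs came from mid-gestation embryos of OG2 fathers, which carry an Oct4-GFP reporter, and wild-type mothers of another strain, and were infected with retroviral vectors for Oct4 and for native Nanog or its variant NanogN70, in which the BRG1-binding N-terminal domain of SS18 is fused through a short linker to the N-terminus of NANOG. Both paths shared the starting MEFs, Oct4 and the media (iCD3, then N2B27 with 2iL), and differed by the domain on NANOG. Day0 was set after the infections, so the factors may already be made in the Day0 libraries, and the ESCs, also from OG2 mice, received no factor. Each path was sampled on Day0, Day1, Day3, Day5, Day7, Day8, Day10 and Day12 with 1 library per day, MEFs had 1 library and ESCs had 3, so no difference between the paths has a replicate. The 3 ESC samples are named ESC by title and MEF in their source field, and were grouped by title. Cells were measured in bulk, so fewer accessible cells and less accessibility per cell cannot be told apart.

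SS18 is a subunit of BAF, an ATP-dependent remodeler with BRG1 as its motor that moves or evicts nucleosomes. In fibroblasts, AP-1 (dimers of FOS, JUN and related bZIP proteins) and TEAD, the DNA-binding partner of YAP, occupy many distal enhancers of adhesion, cytoskeleton and matrix genes. Reprogramming to pluripotency involves both the closing of such somatic enhancers and the opening of pluripotency enhancers.

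The sequences below show the 201 bp around the MEF summit of 9 members, so that the matches counted later can be seen in place. The first 6 are the members with the strongest MEF peaks among those open on all 7 Nanog days and no NanogN70 day. The last 3, chosen after their values were seen, are the strongest members near genes of the extracellular matrix, AP-1 and TEAD lists. Each region is named by its nearest protein-coding start site, and the reference is GRCm38 (mm10), plus strand, 5′ to 3′. Capitals mark matches to the AP-1 motif TGANTCA, which is its own reverse complement as a pattern, and to the TEAD motif GGAATG or its reverse complement CATTCC.
Camk2g, chr14:20804991-20805191: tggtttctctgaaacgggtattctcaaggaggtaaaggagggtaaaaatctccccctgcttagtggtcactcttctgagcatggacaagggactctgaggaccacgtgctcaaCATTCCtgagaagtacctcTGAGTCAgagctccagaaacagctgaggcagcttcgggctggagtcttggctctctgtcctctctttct
Bcar1, chr8:111726189-111726389: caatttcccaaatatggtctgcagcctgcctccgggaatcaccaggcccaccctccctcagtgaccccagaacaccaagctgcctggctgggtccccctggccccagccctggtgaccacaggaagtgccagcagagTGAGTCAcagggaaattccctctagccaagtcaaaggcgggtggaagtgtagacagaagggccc
Myh15, chr16:49289281-49289481: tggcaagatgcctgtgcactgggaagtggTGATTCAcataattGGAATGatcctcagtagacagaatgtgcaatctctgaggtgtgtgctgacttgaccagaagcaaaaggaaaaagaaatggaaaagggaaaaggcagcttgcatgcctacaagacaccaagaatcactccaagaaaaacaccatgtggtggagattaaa
Dync2li1, chr17:84585227-84585427: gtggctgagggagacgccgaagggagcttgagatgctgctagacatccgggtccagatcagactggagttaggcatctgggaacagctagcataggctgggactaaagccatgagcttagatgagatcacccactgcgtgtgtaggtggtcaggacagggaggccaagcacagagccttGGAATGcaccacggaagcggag
Irs2, chr8:10646610-10646810: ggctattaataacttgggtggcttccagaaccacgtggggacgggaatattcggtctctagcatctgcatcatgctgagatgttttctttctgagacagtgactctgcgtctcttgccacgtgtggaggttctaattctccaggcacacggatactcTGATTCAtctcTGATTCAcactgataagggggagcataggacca
Pepd, chr7:34929937-34930137: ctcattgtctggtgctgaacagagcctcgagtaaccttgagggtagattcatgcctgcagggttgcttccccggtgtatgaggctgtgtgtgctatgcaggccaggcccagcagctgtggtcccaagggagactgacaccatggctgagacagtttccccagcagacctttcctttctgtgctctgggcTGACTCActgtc
Loxl1, chr9:58299326-58299526: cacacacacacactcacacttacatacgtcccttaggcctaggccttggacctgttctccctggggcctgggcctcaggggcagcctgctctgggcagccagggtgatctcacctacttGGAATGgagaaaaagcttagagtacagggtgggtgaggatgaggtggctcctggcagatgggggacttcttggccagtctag
Bach1, chr16:87635825-87636025: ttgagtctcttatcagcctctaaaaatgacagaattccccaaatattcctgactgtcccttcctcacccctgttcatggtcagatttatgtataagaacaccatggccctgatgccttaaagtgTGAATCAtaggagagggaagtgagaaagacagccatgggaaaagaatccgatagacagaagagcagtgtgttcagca
Ankrd1, chr19:36208054-36208254: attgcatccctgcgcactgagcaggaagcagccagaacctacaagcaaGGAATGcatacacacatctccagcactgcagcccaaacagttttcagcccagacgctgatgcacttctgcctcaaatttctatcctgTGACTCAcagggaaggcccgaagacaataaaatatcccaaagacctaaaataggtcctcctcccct

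An AP-1 match lay in 7 of these 9 windows and a TEAD match in 5. The windows were picked from the strongest peaks and from lists. Over all members the shares within 100 bp of the summit were 60.2% for AP-1 and 20.2% for TEAD, with 39.8% and 24.8% of MEF-only regions. In the Camk2g region a TEAD match lay 15 bp and an AP-1 match 35 bp to the right of the summit. The Irs2 region held 2 AP-1 matches, both to the right of the summit. The Dync2li1 and Loxl1 regions held a TEAD match but no AP-1 match. These matches are descriptions of the letters in the window and were not measured as binding.

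The values that chose the members describe them as follows, with no test. Of the 3134 members, 1325 were open on 4 Nanog days, 942 on 5, 616 on 6 and 251 on all 7, while 1254 were open on no NanogN70 day and 1880 on 1. Just outside the limits, 1985 regions were open on 3 Nanog days and at most 1 NanogN70 day, and 1303 were open on at least 4 Nanog days and on 2 NanogN70 days. The limits therefore cut through a continuous spread of regions rather than between separate groups. The opposite rule, open on at least 4 NanogN70 days and at most 1 Nanog day, was met by 409 MEF-only regions (0.548%), which are called mirror regions below. At the extremes, 59 regions were open on all 7 Nanog days and no NanogN70 day, against 6 of the opposite kind. The other MEF-only sets used for comparison were the 3341 regions open on at least 4 days in both paths (persisting regions) and the 56199 open on at most 1 day in both (lost regions).

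**Figure D1:**
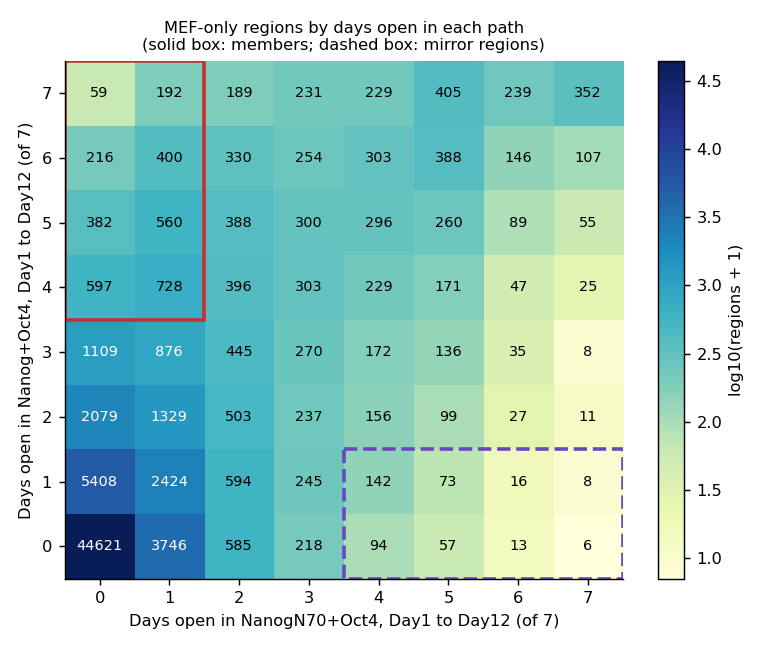
Number of MEF-only regions by days open from Day1 to Day12 in NanogN70+Oct4 (x axis) and Nanog+Oct4 (y axis), with colour on a log10 scale. The solid box holds the 3134 members and the dashed box the 409 mirror regions, and the count falls gradually across the edges of both boxes.

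With Nanog+Oct4, the share of members with a peak was 77.7% on Day1, 78.3% on Day3, 72.8% on Day5, 80.6% on Day7, 91.4% on Day8, 65.5% on Day10 and 27.0% on Day12. With NanogN70+Oct4 it was 40.6% on Day1, 6.57% on Day3, 3.19% on Day5, 3.70% on Day7, 3.32% on Day8, 0.447% on Day10 and 2.20% on Day12. Most members were thus closed by Day3 in the NanogN70 path and after Day8 or Day10 in the Nanog path, since the last open Nanog day was Day8 for 790 members, Day10 for 1348 and Day12 for 847. In the NanogN70 path 2525 members (80.6%) were closed from Day3 on. Of the 1880 members with 1 open NanogN70 day, that day was Day1 for 1271 (67.6%).

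The order of closing was less regular than these shares. The open Nanog days formed 1 unbroken run in 1575 members (50.3%), and 700 members (22.3%) had no Nanog peak on Day1 but had one on at least 4 later days. On Day0, 804 members (25.7%) had no Nanog peak, and 396 (12.6%) had none on both Day0 and Day1, so these had a peak again later rather than throughout. In the NanogN70 path, 730 members (23.3%) were open on Day0 and closed on every later day, 1169 (37.3%) were open on Day0 and Day1 only, and 524 (16.7%) had no peak on Day0 or on any later day. Later closing with Nanog+Oct4 therefore describes the set as a whole, while single members often lost and regained their peak.

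Member peaks were deeper than the typical peak in MEFs and near or below the typical peak of the Nanog libraries from Day1 on. The pileup of a peak is the number of tags at its summit, and the number of reads per library is not known, so it was set against the median pileup of the same library at the 14217 regions open in all 20 libraries (scaled pileup). Members had a median MEF pileup of 18 tags, or 0.462 on this scale, against 10 tags over all MEF peaks. Where open with Nanog+Oct4 they had a median of 10 tags on Day0 (0.625) and of 6 to 9 tags from Day1 to Day12 (0.211 to 0.438). All peaks of these libraries had a median of 8 tags on Day0 and of 7 to 9 from Day1 to Day12. When only peaks with a score of at least 100 were used, the rule gave 1602 members, of which 652 were among the 3134. Of the 3134, 1978 (63.1%) then fell below 4 Nanog days and 504 (16.1%) lost their MEF peak. A region without a peak may thus still be accessible below the detection limit of that library.

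Libraries differed in how readily they gave peaks, so the same shares were taken at the 31355 regions open in MEFs and all 3 ESC libraries. There, NanogN70 libraries had a peak at 66.3% to 85.3% of regions from Day1 to Day12 and Nanog libraries at 68.5% to 83.7%, and the NanogN70 share was the lower one on 2 of 7 days. These were Day1 (66.3% against 68.5%) and Day8 (77.2% against 83.2%). On Day8, where members were furthest apart, NanogN70 also had fewer peaks in all, 55339 against 76740. The median pileup at regions open in all 20 libraries was 16 to 38 tags in the Nanog libraries and 16 to 60 in the NanogN70 libraries. The highest value, 60, belonged to NanogN70 Day3, on which 6.57% of members were open. That library also had a peak within 1 kb of the start site of 9 of 10 leukocyte genes (Ptprc, Cd3e, Cd8a, Lck, Cd2, Itgb2, Coro1a, Lcp1 and Laptm5, but not Cd4), against 2 or 3 of 10 in the other 15 time-course libraries, 4 in MEFs and 4 to 6 in ESCs, and the part of this in the members was not tested. Without NanogN70 Day3 the rule gave 3679 members, all 3134 included. Fibroblast genes had such a peak in MEFs at 10 of 10 start sites and in ESCs at 8 of 10, and pluripotency genes in MEFs at 3 of 10 and in ESCs at 9 or 10.

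**Figure D2:**
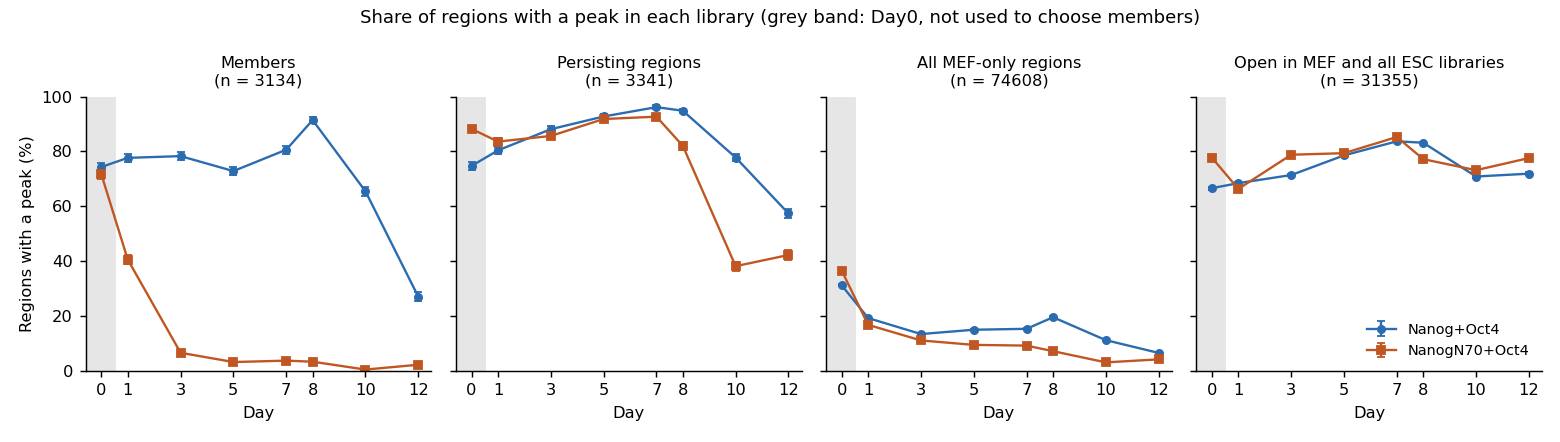
Share of regions with a peak (y axis, %) by day (x axis) with Nanog+Oct4 (circles) and NanogN70+Oct4 (squares), for members, persisting regions, all MEF-only regions and regions open in MEFs and all ESC libraries; bars are 95% exact binomial intervals, mostly smaller than the symbols. On Day0 members stand at 74.3% with Nanog+Oct4 and 71.7% with NanogN70+Oct4, while the other sets shown are higher in NanogN70, and members are furthest apart on Day8 (91.4% and 3.32%).

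The Day0 libraries were not used to choose the members and show where both paths stood at the start of the time course. On Day0, 2330 members (74.3%, 95% interval 72.8 to 75.9) had a peak with Nanog+Oct4 and 2246 (71.7%, 70.1 to 73.2) with NanogN70+Oct4. These exact (Clopper-Pearson) intervals, like those of all shares below, cover counting error only, and regions of 1 library are not replicates. Intervals of differences between shares combine the widths of the exact intervals of both shares. NanogN70 minus Nanog was -2.68 points at members, a value that depended on the peak calls. Over all MEF-only regions the background was 31.2% with Nanog+Oct4 and 36.5% with NanogN70+Oct4, a difference of 5.35 points in the other direction. Persisting regions differed by 13.5 points (74.7% and 88.2%), lost regions by 4.09 points (21.4% and 25.5%), mirror regions by 36.7 points (30.8% and 67.5%) and regions open in both MEFs and ESCs by 11.1 points (66.6% and 77.7%), each with the higher share in NanogN70.

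As reported, members were the only one of these 6 sets with the lower Day0 share in NanogN70. The sign of their own difference depended on the peak threshold. It was 0.687 points at a minimum score of 100, -16.6 points when every library was limited to its 44126 strongest peaks, and -12.4 points with at least 6 Nanog days and no NanogN70 day. It was -1.63 points (-3.63 to 0.366) when NanogN70 Day3 was not used by the rule and -1.67 points (-3.90 to 0.560) when Day1 was not. Without Day7 it was -2.19 points (-4.59 to 0.222) and without Day10 -2.16 points (-4.54 to 0.225). All of these intervals hold 0, while those without Day3, Day5, Day8 or Day12 of both paths did not. The intervals treat both shares as independent, although the same regions were scored in both libraries, so they cannot decide whether the difference is 0. Read against all MEF-only regions under the same setting, the members' difference was -8.03 points as reported, -7.91 at a minimum score of 100 and -6.25 with equal numbers of peaks. With equal numbers of peaks, all MEF-only regions thus also had the lower Day0 share in NanogN70, so the sign of the background depended on the peak calls too. Of the members, 1985 (63.3%) were open on Day0 in both paths, 345 with Nanog+Oct4 only, 261 with NanogN70+Oct4 only and 543 in neither.

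At the 1985 members open in both Day0 libraries, the median scaled pileup was 0.688 with Nanog+Oct4 and 0.5 with NanogN70+Oct4. The NanogN70 value was the lower one in 1598 of them (80.5%). This direction rests on the scaling by the libraries' medians at regions open in all libraries (16 and 24 tags), since the unscaled medians were 11 tags with Nanog+Oct4 and 12 with NanogN70+Oct4. The same was true of 66.8% of MEF-only regions open in both libraries, 71.3% of lost, 58.0% of those shared with ESCs, 50.1% of persisting and 33.3% of mirror regions. The members thus had the lower scaled value in NanogN70 more often than each other set, on a day that the rule did not use, and with 1 library per path a difference between infections cannot be told apart from this.

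The 10 members named by rule, with all 7 Nanog days open, no NanogN70 day and the strongest MEF peaks, were all open on Day0 in both paths. The strongest lay at -11003 bp from the start site (negative distances are upstream) of Camk2g, a subunit of a calcium-dependent kinase (chr14:20804940-20805697, intergenic), with 50 tags in MEFs. With Nanog+Oct4 it had 16, 8, 11, 16, 11, 22, 16 and 12 tags from Day0 to Day12, and with NanogN70+Oct4 14 tags on Day0 and no peak on any later day. The peak was thus present in every Nanog library and gone in NanogN70 by Day1.

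The second lay in an intron of Bcar1, a focal adhesion scaffold (chr8:111725943-111726918), and had the deepest MEF peak of the 10 with 93 tags. Its Nanog peaks had 14, 8, 12, 7, 6, 18, 11 and 5 tags, and its NanogN70 Day0 peak 12. In an intron of Tns3, a tensin that ties integrins to actin (chr11:8579549-8580331), MEFs had 41 tags and the Nanog libraries 20, 15, 7, 7, 6, 14, 9 and 6, against 21 tags on NanogN70 Day0. At Bcar1 and Tns3 the Nanog peaks thus lasted to Day12 at 5 to 18 and 6 to 15 tags after Day0. Tags are not scaled to depth, so they are compared between libraries only as scaled values.

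The others lay in introns of Plekhh2 (chr17:84584926-84585550, nearest start site Dync2li1, a dynein subunit of cilia), Pepd (chr7:34929585-34930287, a peptidase that cleaves dipeptides ending in proline) and Hs6st3 (chr14:119466637-119467314, a heparan sulfate sulfotransferase). A further 4 were intergenic, with Myh15, a myosin heavy chain (chr16:49288786-49289614), Irs2, an insulin receptor substrate (chr8:10646388-10646946), 3100002H09Rik (chr4:124570654-124571378) and Nova1, a splicing regulator of neurons (chr12:47117389-47117882), as nearest genes. The start sites of Irs2, Hs6st3 and Nova1 were the furthest of the 10, with distances of 361748, 328718 and -298844 bp. Over the 10 regions the pileup with Nanog+Oct4 from Day1 to Day12 was 5 to 22 tags, with a median scaled value of 0.383 against 1.21 in MEFs. On Day0 the median scaled pileup was 0.969 with Nanog+Oct4 and 0.521 with NanogN70+Oct4, with the lower value in NanogN70 in 9 of 10, Myh15 being the exception. In unscaled tags NanogN70 was lower in 5 of 10, so this count also rests on the scaling. Of all 59 regions of this extreme kind, 50 were open on Day0 with Nanog+Oct4, 43 with NanogN70+Oct4 and 41 with both.

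**Figure D3:**
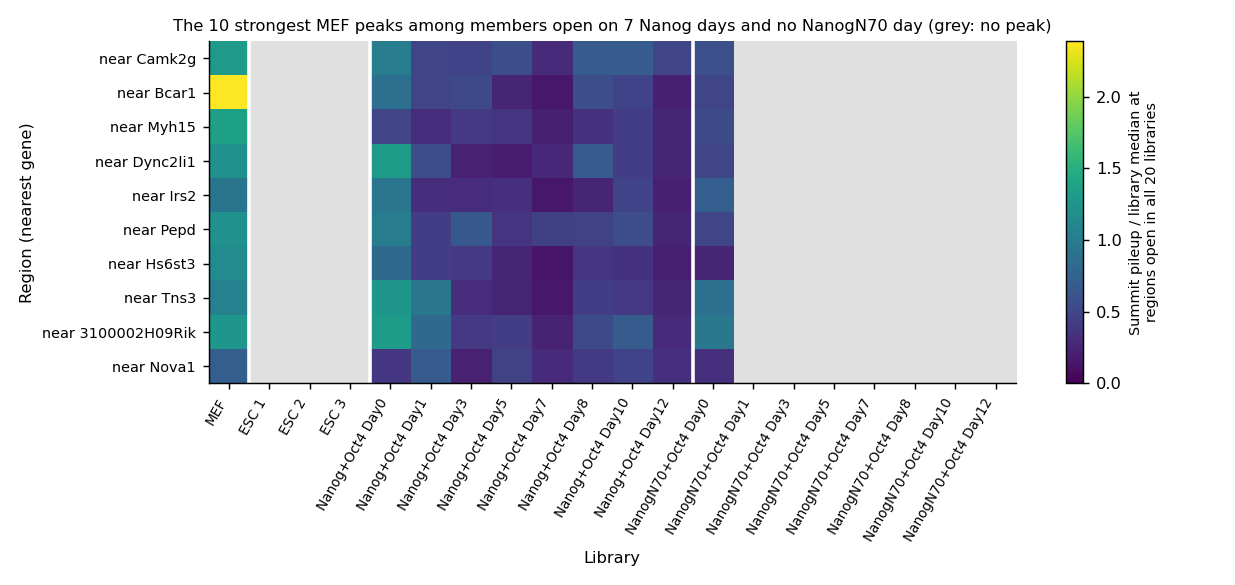
Scaled pileup (summit tags over the library's median at regions open in all 20 libraries, colour) of the 10 named regions (rows) in each library (columns), with grey for no peak. Peaks stand at 0.718 to 2.38 in MEFs, at a median of 0.969 on Nanog Day0 and 0.521 on NanogN70 Day0, and are still present at 0.132 to 0.938 in the Nanog libraries from Day1 to Day12. They are absent in ESCs and in NanogN70 from Day1 on.

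Members tended to be strong fibroblast sites. Their median MEF score, which is −10 times the log10 of the peak caller's p-value, was 324, against 288 in persisting, 104 in mirror and 96.5 in lost regions. When the MEF-only regions were cut into 4 groups of equal size by MEF score, members made up 1.15%, 1.99%, 3.54% and 10.1% of the lowest to the highest group, and mirror regions 0.587%, 0.619%, 0.579% and 0.407%. Persisting regions made up 1.65%, 2.38%, 3.91% and 9.97%. The shares of members and persisting regions thus both rose with the strength of the MEF peak, and that of mirror regions did not. The MEF peak was part of the rule only as present or absent, and the part of peak detection in this rise was not tested. From the lowest to the highest group, 36.3%, 43.6%, 60.5% and 89.5% of members had a Day0 peak with Nanog+Oct4, and 39.5%, 45.5%, 55.8% and 86.0% with NanogN70+Oct4. The NanogN70 share was thus the higher one in the lower 2 groups and the lower one in the upper 2. Other MEF-only regions had 8.47%, 14.2%, 30.2% and 67.6% with Nanog+Oct4, and 15.1%, 22.3%, 36.6% and 68.8% with NanogN70+Oct4, higher in NanogN70 in each group.

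Most members were far from promoters, as were other MEF-only regions. Of the members, 3000 (95.7%, 95 to 96.4) had their MEF summit over 2 kb from every protein-coding start site, against 95.6% of MEF-only regions, 93.4% of persisting and 93.6% of mirror regions. The summit was in an intron in 51.1%, in an exon in 2.39% and between genes in 46.5%. Introns held 46.7% of MEF-only and 50.6% of persisting summits. The median distance to the nearest start site was 44177 bp (51749 bp for MEF-only and 41295 bp for persisting regions). Median GC content within 100 bp of the summit was 48.3%, against 45.8% in MEF-only and 49.3% in persisting regions. In intron share, distance and GC content, members were thus nearer to persisting regions than to all MEF-only regions. Members made up 3.48% to 5.27% of MEF-only regions on the autosomes and 2.22% (1.59 to 3.01) on the X chromosome.

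The sequence at the MEF summit was not used by the rule, and all motifs were searched on both strands. An AP-1 match (TGANTCA, either strand, wholly within 25 bp of the summit) was found in 844 members, or 26.9% (25.4 to 28.5). The background was 16.3% of MEF-only regions and 6.12% of the regions of all kinds at the summit of their strongest peak. AP-1 matches were found in 15.5% (14.3 to 16.8) of persisting regions, 15.6% (15.3 to 15.9) of lost regions and 8.82% (6.26 to 12.0) of mirror regions. Members thus carried the AP-1 letters more often than each of the other 3 sets, by more than the counting error.

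The difference lay mainly in the motif with C or G at its centre. TGAGTCA or its reverse complement TGACTCA, the form that FOS-JUN dimers are known to prefer, was found in 24.0% of members, 13.1% of persisting, 12.8% of lost and 6.37% of mirror regions. TGAATCA or TGATTCA was found in 3.51% of members (2.89 to 4.22) and 2.93% of lost regions (2.79 to 3.07), with intervals that overlap. Within 100 bp of the summit, as in the windows printed above, an AP-1 match was found in 60.2% of members, 39.8% of MEF-only, 40.4% of persisting, 38.1% of lost and 22.8% of mirror regions. Over 2 kb from start sites the share in members within 25 bp was 27.1%, against 16.5% of MEF-only regions.

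TEAD (GGAATG) showed another pattern. It was found in 6.19% of members (5.37 to 7.09), with a background of 8.39% of MEF-only and 4.48% of all regions, and in 5.12% (4.40 to 5.92) of persisting, 9.11% (8.87 to 9.35) of lost and 8.82% (6.26 to 12.0) of mirror regions. Members thus held fewer TEAD matches than lost regions, and within 25 bp their interval overlapped that of persisting regions. Within 100 bp TEAD was found in 20.2% (18.8 to 21.6) of members, 17.3% (16.1 to 18.7) of persisting and 26.4% of lost regions, and the intervals of members and persisting regions no longer overlapped. RUNX (TGTGGTT), a family that acts in mesenchymal cells, was found in 2.43% of members and 2.61% of MEF-only regions. SOX (CATTGT) was found in 2.65% and 2.53%, CEBP (TTGCNNAA) in 2.33% and 2.13%, and CTCF (CC, 3 bases, AG, 2 bases, GGC) in 0.957% and 1.02%. The octamer ATGCAAAT, which OCT4 binds, was found in 9 members (0.287%) and in 0.223% of MEF-only regions. For these 5 motifs the members' interval within 25 bp held the MEF-only share. Within 100 bp it did not for CEBP, at 11.2% (10.1 to 12.4) of members and 9.91% of MEF-only regions, and the octamer share of MEF-only regions, 1.102%, lay just under the interval of members (1.104 to 1.99).

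Of the other motifs searched, CRE (TGACGTCA), NFI (the palindrome TTGGC and GCCAA with 5 bases between), ETS (CCGGAAG), MEF2 (CTA, 4 bases, TAG), KLF (CCACACCC), RFX (GTTGCC followed by ATGG) and BACH (TGC followed by TGAGTCA, which is an AP-1 match) had backgrounds of 0.121%, 0.00670%, 0.245%, 0.777%, 0.663%, 0.0885% and 0.409% of MEF-only regions, and each was found in under 1% of members within 25 bp. Within 100 bp the MEF-only share lay outside the members' interval for BACH, at 1.82% (1.38 to 2.35) of members and 1.07% of MEF-only regions, for CRE, at 0.574% (0.341 to 0.906) and 0.326%, and narrowly for MEF2, at 2.87% (2.315 to 3.518) and 3.524%. Persisting regions had 1.17% (0.831 to 1.59) for BACH, 0.748% (0.485 to 1.10) for CRE and 3.32% (2.74 to 3.99) for MEF2, with intervals that overlap those of members. Any of the 14 motifs was found in 38.9% of members, 28.0% of persisting and 31.8% of lost regions, so most members had none of these letters within 25 bp of the summit.

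**Figure D4:**
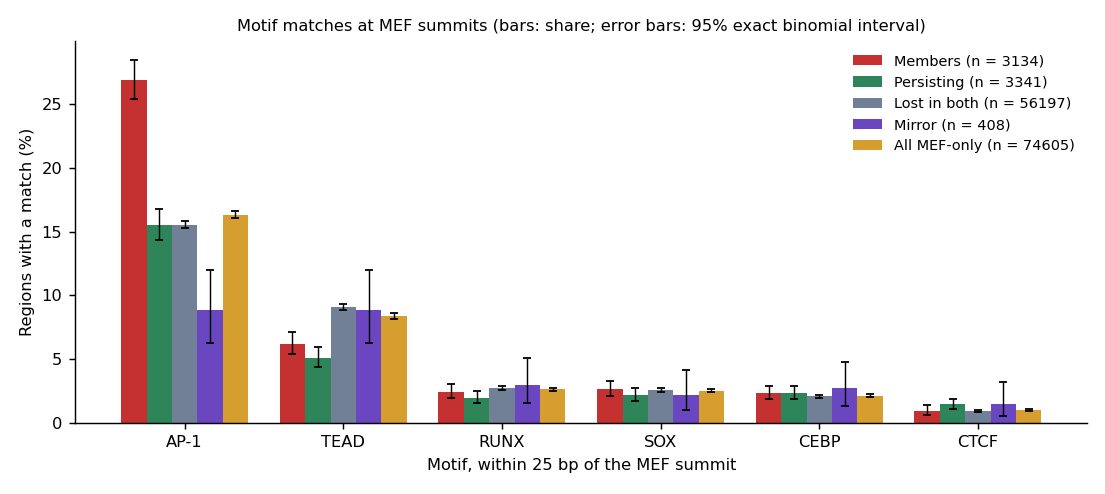
Share of regions with a motif match within 25 bp of the MEF summit (y axis, %) for 6 motifs (x axis) in members, persisting, lost, mirror and all MEF-only regions; error bars are 95% exact binomial intervals. AP-1 stands at 26.9% in members and at 8.82% to 16.3% in the others, TEAD at 6.19% in members and 9.11% in lost regions, and the other 4 motifs lie near each other in all sets.

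The AP-1 share rose with the strength of the MEF peak in all large sets, so it was also taken within the same 4 groups. From the lowest to the highest group it was 18.1%, 21.4%, 23.8% and 30.1% in members, 8.09%, 9.26%, 14.1% and 18.8% in persisting regions, and 12.4%, 15.1%, 17.7% and 18.6% in lost regions. Members thus had the highest share in each group. By GC content of the summit (under 40%, 40% to 50%, 50% to 60% and above) it was 30.2%, 28.5%, 24.5% and 17.3% in members and 18.9%, 17.7%, 14.1% and 5.12% in persisting regions, so members were again higher in each band.

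AP-1 matches also differed within the members. They were found in 33.8% (31.2 to 36.5) of the 1271 members still open on NanogN70 Day1 and in 22.2% (20.4 to 24.2) of the 1863 already closed, groups that also differed in median MEF score (435 and 258) and median GC content (45.8% and 49.8%). They were found in 31.0% of members open on Day0 in both paths and 17.1% of those closed in both. These groups had a median MEF score of 486 and 116 and a median GC content of 47.3% and 50.7%. Members that still had a Nanog peak on Day12 had fewer AP-1 matches (20.7%, 18 to 23.5) than those that did not (29.3%, 27.4 to 31.2). Their MEF peaks were stronger (median score 455 and 289) and their median GC content was higher (49.8% and 47.8%). AP-1 shares rose with MEF score and fell with GC content above, and the part of either in this split was not tested. TEAD went the other way in that split, with 8.15% (6.39 to 10.2) of members open on Nanog Day12 and 5.47% (4.57 to 6.48) of those closed. The Day1 and Day12 splits used days that are part of the rule, and the rule did not use sequence. By number of open Nanog days, from 4 to 7, the AP-1 share was 26.0%, 27.5%, 28.6% and 25.5%, with overlapping intervals.

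**Figure D5:**
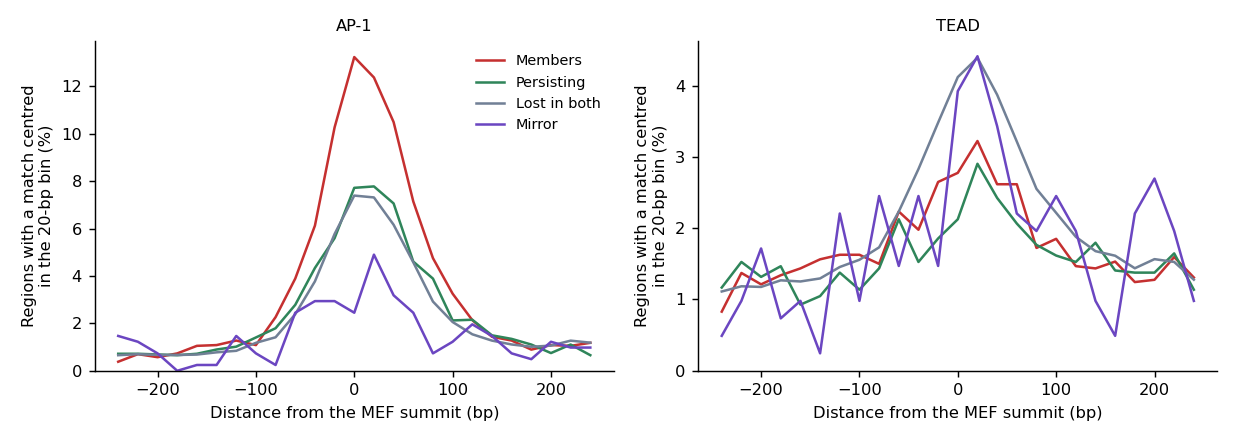
Share of regions with a match centred in each 20-bp bin (y axis, %) by distance from the MEF summit (x axis, bp, plus strand) for AP-1 (left) and TEAD (right) in members, persisting, lost and mirror regions. AP-1 reaches 13.2% of members in the bin at the summit against 7.72% of persisting and 7.40% of lost regions, members, persisting and lost regions fall to similar levels at the edges, and mirror regions, with 408 summits, are noisy.

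Within 100 kb, 2281 members were assigned to the nearest of 1908 protein-coding genes, 15.7% of the 12143 genes that had a MEF-only region. Most of these genes (1596) had 1 member, 266 had 2, 35 had 3, 8 had 4, 2 had 5 and 1 had 6. Most genes with a member thus had a single one. Another member lay within 100 kb of 1161 members (37.0%) and within 10 kb of 226 (7.21%, 6.33 to 8.17), while 4.28% (4.12 to 4.46) of lost, 5.18% (4.45 to 5.98) of persisting and 4.65% (2.82 to 7.16) of mirror regions had a member within 10 kb.

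Zbtb40, a zinc-finger gene, had the most members, 6 of its 15 MEF-only regions, 1 in an intron and 5 between -36476 and -87869 bp. Their MEF peaks were weak to moderate, with 6 to 22 tags. Of these members, chr4:137133546-137133909 and chr4:137133942-137134205 lay side by side. Only overlapping peaks were joined, so such neighbours count as separate members, here and in the shares within 10 kb above. Fndc3b, a gene with fibronectin type III domains, had 5 of 22, all in introns. The deepest of these (chr3:27652423-27653190) had 86 tags in MEFs, 35 on Nanog Day0 and 38 on NanogN70 Day0. It then had 9, 11 and 9 tags on Nanog Day1, Day3 and Day5, 8 on Day8 and Day10, and no NanogN70 peak after Day0. Its Day0 scaled pileup was 2.19 with Nanog+Oct4 and 1.58 with NanogN70+Oct4, so a strong peak in both paths lasted in one of them.

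Tns1, another tensin, had 5 of 30 MEF-only regions as members. Genes with 4 were Plxna2, a semaphorin receptor (of 17), Runx1, a transcription factor of blood and mesenchyme (of 31), Gli3, an effector of Hedgehog signalling (of 21), Tnr, a tenascin (of 23), St3gal3, a sialyltransferase (of 11), C1qtnf7, a secreted C1q-like protein (of 18), and Svil, an actin-binding protein (of 28). Pcbp3, a poly(C)-binding protein, also had 4, of 13, and falls outside the 10 genes named by rule through a tie. Genes with many MEF-only regions have more chances to hold a member, so the lists below are read per region, against the 4.57% of MEF-only regions near any gene that were members.

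Genes of the fibroblast extracellular matrix had 26 members among 341 MEF-only regions (7.62%, 5.04 to 11), at 19 of 33 genes with a MEF-only region. By gene bodies with 10 kb on each side, 14 of 34 had one. Persisting regions numbered 22 of the same 341, against 2531 of the 49869 MEF-only regions near any gene. Col5a1, a fibrillar collagen, had 3. Its strongest, at -27748 bp (chr2:27858272-27858975), had 58 tags in MEFs and 16, 7, 14, 10, 26, 19, 15 and 9 tags in the Nanog libraries. With NanogN70+Oct4 it had 10 tags on Day0, none from Day1 to Day10 and 6 on Day12. This member was open on every Nanog day and came back once in NanogN70.

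Tnc, the adhesion-modulating tenascin C, had 2 members at -29391 and -31158 bp. The stronger (chr4:64076165-64076892) had 116 tags in MEFs, 43, 6, 15, 25, 19 and 7 on Nanog Day0, Day1, Day3, Day8, Day10 and Day12, and 27 and 6 on NanogN70 Day0 and Day1. Nanog had no peak there on Day5 and Day7, so it was lost and regained in peak calls. Fbln2, a fibulin of elastic fibres, and Col6a3, a microfibrillar collagen, had 2 each, and one of the Col6a3 members lay at -46 bp (chr1:90843830-90844352). The strongest member of the list lay in an intron of Loxl1, a lysyl oxidase that crosslinks elastin (chr9:58299130-58299928). It had 101 tags in MEFs. With Nanog+Oct4 it had 40, 8, 4, 24, 13 and 8 tags on Day0, Day1, Day7, Day8, Day10 and Day12, and no peak on Day3 and Day5. With NanogN70+Oct4 it had 23 tags on Day0 and 14 on Day8. Col1a1, Dcn and Eln had 13, 10 and 9 MEF-only regions and no member. Loxl1, Col1a1, Dcn and Eln were named after their values were seen.

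Genes of AP-1 and related bZIP factors had 10 members among 124 MEF-only regions (8.06%, 3.94 to 14.3), an interval that holds the 4.57% of all genes. They lay at 7 of 14 genes. Bach1 and Bach2, repressors that bind extended AP-1 sites, and Jdp2, a JUN partner, had 2 each. Fosl2, a FOS relative, had 1, as did Fos, Jun and Atf3, named after their values were seen. The Bach1 member printed above (chr16:87635327-87636171) had 56 tags in MEFs. With Nanog+Oct4 it had 11, 4, 7, 6, 7 and 5 tags on Day0, Day1, Day3, Day7, Day8 and Day10, and with NanogN70+Oct4 10 and 4 on Day0 and Day1. By gene bodies with 10 kb on each side in place of the nearest start site, 2 of 15 genes had a member.

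Of the TEAD and YAP genes, 5 of 14 had a member, 6 of 131 regions (4.58%), which is the level of all genes. Ankrd1, a YAP target of stretched cells, had 2, and Ccn1, another target, Vgll3, a TEAD cofactor, and Yap1 had 1 each. One Ankrd1 member covered its start site (chr19:36119663-36120349) with 37 tags in MEFs, 13, 5, 9, 7, 7, 9 and 6 on every Nanog day but Day7, and 17 and 7 on NanogN70 Day0 and Day1. It is 1 of the 134 members (4.28%) within 2 kb of a start site. Of the other lists, TGF-beta signalling had 7 of 209 regions (3.35%; Tgfbr3, Smad3 and Tgfbr2 with 2 and Smad7 with 1), actin and contractility 5 of 200 (2.50%; Tpm1 with 2, Actn1, Cav1 and Myh9 with 1), and receptors, integrins and growth factors 10 of 202 (4.95%; Itgb1 and Ddr2 with 2, Igf1 and Met with 1). The intervals of all 3 held 4.57%.

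Mesenchymal transcription factors had 9 members in 345 regions (2.61%, 1.20 to 4.89), 4 of them in introns of Runx1. The strongest of the list lay 93408 bp from Nr2f2, a nuclear receptor of mesenchyme (chr7:70266716-70267482), with 114 tags in MEFs, 29, 11, 12, 10, 13 and 11 on Nanog Day0, Day1, Day3, Day8, Day10 and Day12, and 40 and 4 on NanogN70 Day0 and Day1. Scaled, the Day0 peaks were 1.81 with Nanog+Oct4 and 1.67 with NanogN70+Oct4, close to each other, and only the Nanog peak was called again after Day1. Meis1 and Nfia had 1 each. Cell cycle inhibitors had no member in 30 regions, with an exact interval that reaches 11.6%. Pluripotency genes had 1 in 52, in an intron of Esrrb, and leukocyte genes 1 in 33, upstream of Cd2. The Cd2 member had 28 tags in MEFs and 9 to 27 in the Nanog libraries, and had no peak in NanogN70 Day3, where the Cd2 promoter did.

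Regions near members were compared with those elsewhere. MEF-only regions that were not members but lay within 10 kb of one (3269) had a mean open share over Day1 to Day12 of 14.4% with Nanog+Oct4 and 10.3% with NanogN70+Oct4, a difference of -4.08 points. For those over 100 kb from every member the shares were 11% and 8.16%, a difference of -2.87 points, and for all non-members the difference was -3.15 points, both with NanogN70 lower on 6 of 7 days. Non-members were partly chosen by the same rule, so these values are descriptions. Regions open in MEFs and ESCs near members differed by 1.05 points and all such regions by 1.38 points. Regions open in ESCs but not in MEFs (ESC-only regions) within 10 kb of a member went the other way, open at 6.86% with Nanog+Oct4 and 12.9% with NanogN70+Oct4, a difference of 6 points, and those over 100 kb from every member at 5.43% and 9.93%. Near members, MEF-only regions thus had fewer peaks in NanogN70 and ESC-only regions had more, as they did elsewhere. Open shares were higher near members in both paths, so the larger differences in points do not show a larger relative difference.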

How the data were processed

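The authors trimmed reads with Trim Galore 0.6.4, aligned them with Bowtie2 2.4.5 to mm10, used SAMtools 1.16.1 to drop mitochondrial, repetitive and poorly mapped reads and called peaks per library with MACS 1.4.2, with no shift model and duplicates kept (versions per the labels). No input control is named. For each peak the authors deposited a score, and for each summit a signal, the coverage in tags, not scaled to depth. The lowest deposited score was 50. The number of reads per library is unknown, and so is depth. The members, gene lists and motifs were chosen with earlier results of these data known.

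Regions, motifs and distances were computed in Python 3.11.15 with numpy 2.4.6, pandas 2.3.3 and scipy 1.17.1, and checked on simulated peaks. The GRCm38.p6 sequence and GENCODE M21 basic annotation were used; all peaks lay within its 21 chromosomes' lengths except those on other sequence names, which held 3 MEF-only regions and no member. No test was made: each path has 1 library per day. Named regions were the 10 strongest MEF peaks at the extreme of the rule, named genes the 10 with most members and up to 4 per list. All 213 listed genes were found. Alternatives are given in the closing section.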

Additional observations from a re-analysis of the deposited data

How the results depend on the processing

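No paired analysis was possible because the groups compared hold 1 library each and so share fewer than 2 replicate numbers. Libraries of the same day were compared as values, since days are time points and not replicates. The number of members was 1602 at a minimum score of 100, 1881 with the 44126 strongest peaks of each library and 275 with at least 6 Nanog days and no NanogN70 day. It stayed within 1.5 times of 3134 with each MEF peak as a region (3394), with an overlap of at least 0.5 of the shorter peak (3423), without 1 of the ESC libraries (3169 to 3231), without any 1 day (2258 to 3017) and without NanogN70 Day3 (3679). Most of the members at a minimum score of 100 were other regions, since 652 of the 1602 were among the 3134, as were 916 of the 1881. Mirror regions numbered 260, 121 and 19 under the first 3 settings and 241 without Day7, each time fewer than the members.

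On Day0, the members' share with Nanog+Oct4 was 83.3% with equal numbers of peaks, 72.2% with each MEF peak alone and 81.1% under the stricter day limits. With NanogN70+Oct4 it was 74.5% at a minimum score of 100, 66.7% with equal numbers of peaks, 69.7% with each MEF peak alone and 68.7% under the stricter limits. The difference, NanogN70 minus Nanog, turned to 0.687 points at a minimum score of 100 and was -16.6 with equal numbers of peaks and -12.4 under the stricter limits, and the cause was not tested. Relative to all MEF-only regions it remained negative under all 16 alternatives, reaching -17.7 points under the stricter limits. The AP-1 share of members was 60.2% in the 100-bp window. It exceeded that of persisting regions under all 16 alternatives, by 13.6 points with equal numbers of peaks and 8.89 without Day7. With start sites of all genes, 90.6% of members were over 2 kb away. Alternatives of the Day0 difference from MEF-only regions, of AP-1 against persisting regions and of the mirror regions were chosen after seeing the data. Peaks of few tags in libraries of unknown depth limit every open or closed call.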
